A study of Homo sapiens with 48 samples.

Results

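The genes described here encode proteins that write N6-methyladenosine (m6A) on mRNA, as enzymes or as their partner subunits. They are METTL3, METTL14, WTAP, VIRMA, ZC3H13, RBM15, RBM15B and CBLL1, which form the nuclear writer complex, and METTL16, a separate m6A methyltransferase. Members were matched by gene name, and the set was proposed with earlier results of these data known. Each name matched 1 row, which gave 9 genes of the 19923 protein-coding gene names counted, and all 9 passed the filter on low counts in both lines. The libraries were poly(A) RNA-seq libraries of Kelly and NGP, human neuroblastoma cell lines that the labels give as MYCN-amplified and of WT genotype. STM2457, a small molecule that inhibits the catalytic activity of METTL3, was given at 8 µM for 3 or 6 days, and the control cells received DMSO, its solvent, for as long. Each culture then stood for 0, 3 or 6 h in 10 µg/ml actinomycin D, which stops transcription, so that the fall of an mRNA over these hours reads its decay. With 2 lines, 2 treatments, 2 durations and 3 actinomycin D times there were 24 groups, each of 2 libraries, and no group was without DMSO or STM2457. The labels do not say whether the 2 libraries of a group came from separate cultures, so the p-values measure the spread between these libraries, which may be technical.

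In the writer complex METTL3 carries the catalytic site, and METTL14 holds the RNA and supports it. WTAP recruits this pair to nuclear speckles, VIRMA is the large scaffold that steers methylation towards stop codons and 3′ UTRs, ZC3H13 keeps the complex in the nucleus, CBLL1 (HAKAI) is a RING-domain protein bound to WTAP, and RBM15 and its paralog RBM15B bind RNA and bring the complex to its targets. METTL16 acts alone on U6 snRNA and on hairpins in the mRNA of MAT2A, the enzyme that makes the methyl donor S-adenosylmethionine. m6A marks many mRNAs for faster decay.

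The libraries held between 11139550 and 21942238 fragments in genes, and 0.265% to 0.671% of the counted fragments were ERCC spike-ins. In the DMSO libraries at 0 h, PHOX2A, HAND2, GATA3, ISL1 and DBH, markers of sympathetic neuroblasts, and MYCN were present in both lines, while TH, the enzyme of catecholamine synthesis, lay at 311 to 382.8 CPM (gene counts scaled to a common library total) in Kelly and at 0.194 to 1.17 in NGP. Markers of leukocytes, endothelium and hepatocytes were at or near 0 there (PTPRC at most 1.17, PECAM1 at most 0.520, ALB at 0), EPCAM lay between 0.362 and 4.54, and COL1A1, a fibroblast gene, at 3.56 to 37.2 in Kelly and 54.0 to 86.1 in NGP. As a check of the transcription block, MYCN, a short-lived mRNA, fell by 2.79 to 3.67 on the log2 scale over 6 h in the 4 DMSO series. STM2457 acts on the METTL3 protein, so the METTL3 mRNA does not test its labels.

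All values are CPM after TMM scaling, or log2 differences ± SE from the quasi-likelihood test of edgeR, with p-values adjusted over all genes tested (Benjamini-Hochberg) and called at an adjusted p under 0.05. Under this scaling an mRNA that "fell" lost share relative to the average gene. The ERCC spike-ins give another scale. On it, the median of all genes fell over the 6 h in DMSO, in Kelly by 0.344 (3 days) and 1.178 (6 days) and in NGP by 0.808 (3 days) and 1.099 (6 days). On it 23 member values turned direction, counting only those called on this scale or under TMM. In bulk RNA, fewer cells of a kind and less RNA per cell cannot be told apart. The comparisons of 1 line and duration share their libraries at 0 h, so their values stand side by side and their agreement is no independent evidence.

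All 9 mRNAs were of middle to high abundance in the 4 DMSO libraries of a line at 0 h. By mean CPM per kilobase of exon the members stood between percentile 61.8 (CBLL1, Kelly) and percentile 94.6 (ZC3H13, Kelly) of the 17343 genes ranked. METTL3 had 682 to 1361 fragments per library over the 24 Kelly libraries, which shows the depth behind the values. The length used was that of all annotated exons of a gene, 5861 bases for METTL3, 6413 for WTAP and 10265 for ZC3H13. Their canonical transcripts are 1980, 2105 and 8024 bases long, so the order of the members depends on the length chosen. Per kilobase of annotated exon, the nuclear anchor ZC3H13 was highest in both lines, at 33.3 ± 1.62 CPM per kb in Kelly and 27.3 ± 3.83 in NGP (SD, n = 4). The RNA-binding subunit RBM15 came next, at 26.7 ± 1.37 and 20.5 ± 3.62. WTAP, the adaptor, followed at 14.1 ± 1.82 and 13.9 ± 1.48. METTL3 itself lay at 8.47 ± 0.655 in Kelly and 8.99 ± 0.650 in NGP, and its partner METTL14 at 6.71 ± 0.752 and 7.05 ± 1.29.

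**Figure D1:**
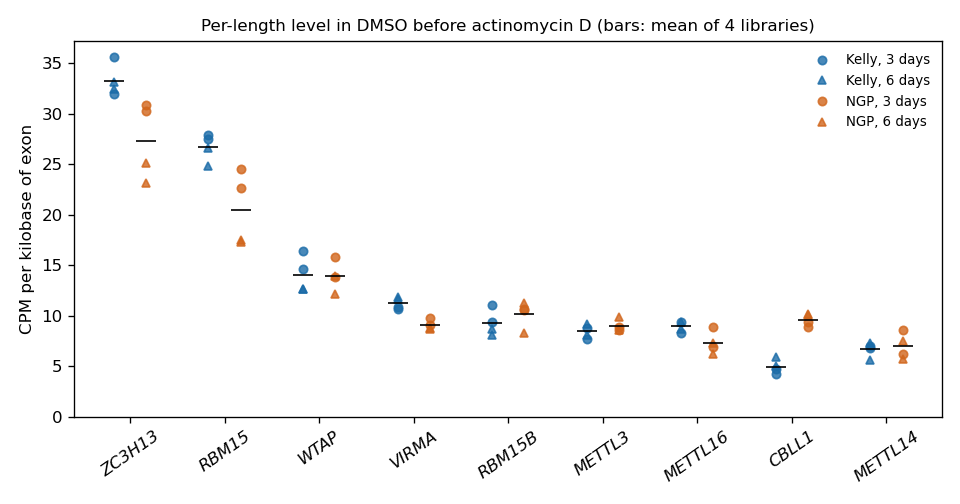
Level of the 9 m6A writer mRNAs in the DMSO libraries at 0 h of actinomycin D, in CPM per kilobase of annotated exon. There is 1 point per library (4 per line), with the line's mean, and the order depends on the length used. ZC3H13 and RBM15 stood highest in both lines, and CBLL1, at 4.98 in Kelly and 9.63 in NGP on average, was the member called between the lines at both durations.

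The scaffold VIRMA lay at 11.3 ± 0.570 in Kelly and 9.13 ± 0.493 in NGP, RBM15B at 9.32 ± 1.29 and 10.2 ± 1.32, METTL16 at 8.97 ± 0.526 and 7.35 ± 1.15, and CBLL1 at 4.98 ± 0.711 and 9.63 ± 0.591 CPM per kb. In Kelly the libraries of ZC3H13, RBM15, WTAP and VIRMA did not overlap from one gene to the next in this order, nor did those of METTL3 and METTL14, while VIRMA, RBM15B, METTL16 and METTL3 overlapped from neighbour to neighbour, as did METTL14 and CBLL1. In NGP only the steps from RBM15 to WTAP and from WTAP to RBM15B were free of overlap. In each line the catalytic pair was less abundant per kilobase of annotated exon than ZC3H13, RBM15 or WTAP. The order of the genes below WTAP was not resolved in NGP.

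In the files' annotation on GRCh38, METTL3 spans 21498133 to 21511342 of chromosome 14, METTL14 118685392 to 118715433 of chromosome 4 and WTAP 159725585 to 159756319 of chromosome 6. VIRMA spans 94487689 to 94553529 of chromosome 8, ZC3H13 45954465 to 46052759 of chromosome 13 and CBLL1 107743949 to 107761667 of chromosome 7. RBM15 lies at 110338506 to 110346681 of chromosome 1, RBM15B at 51391285 to 51397908 of chromosome 3 and METTL16 at 2405562 to 2511891 of chromosome 17. All fragments were counted over exons, UTRs included.

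The lines were compared at 0 h in DMSO in a fit of all 48 libraries. CBLL1 was the member that was higher in NGP at both durations. At 3 days its 2 Kelly libraries held 24.9 and 22.0 CPM and its 2 NGP libraries 49.0 and 46.6, a log2 difference of 1.03 ± 0.21 (adjusted p = 6.36e-05), and no other member was called there (1 of 9, with 30.0% of all genes called in this comparison). At 6 days CBLL1 was higher in NGP by 0.88 ± 0.21 (adjusted p = 0.000456). At 6 days 4 members were lower in NGP, RBM15 by a log2 difference of -0.56, ZC3H13 of -0.44, VIRMA of -0.42 and METTL16 of -0.42, so that 5 of 9 were called against 31.6% of all genes. The METTL16 call was lost without replicate 2 of the Kelly group (-0.37) or replicate 1 of the NGP group (-0.31). METTL3, METTL14, WTAP and RBM15B differed between the lines by -0.07 to 0.22 at both durations, without passing the test. On the spike-in scale WTAP and ZC3H13 turned to 0.34 and 0.27 higher in NGP at 3 days.

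The control groups of the 2 durations also differed in NGP. The DMSO libraries of ZC3H13 went from 317 and 311 CPM at 3 days to 237 and 257 at 6 days, a log2 difference of -0.36 ± 0.08 (adjusted p = 0.000211). RBM15 went from 114 and 106 to 80.9 and 81.8 (-0.45 ± 0.13, adjusted p = 0.0104), a call that was lost without replicate 1 of the 3-day group (-0.39) or replicate 1 of the 6-day group (-0.44). These 2 of 9 were called against 12.1% of all genes. In Kelly 0 of 9 were called between the DMSO durations (8.52% of all genes), with ZC3H13 at 328 and 365 CPM at 3 days and 333 and 340 at 6 days. The labels give no batch or date for the durations.

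The mRNAs of most of the complex were slightly higher in STM2457 than in DMSO. That of METTL3, the target, did not pass the test in either line under TMM scaling. In single comparisons at 0 h only 2 member calls were made. Averaged over the 6 conditions of a line (2 durations by 3 actinomycin D times, 12 STM2457 against 12 DMSO libraries), an average chosen after the data had been seen, 6 of 9 members rose in Kelly and 8 of 9 in NGP, against 11.3% and 14.3% of all genes called higher and 21.4% and 28.5% called in either direction. No member was called lower. The members' medians were 0.22 in Kelly and 0.33 in NGP, against 0.04 and 0.00 for all genes, and on the spike-in scale 0.42 and 0.44 against 0.24 and 0.12. This average adds the 3 and 6 h libraries, so it holds what remained after decay as well as the level before it.

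At 0 h WTAP was the member whose treated libraries stood above the DMSO libraries in all 4 pairs of groups. In Kelly at 3 days its 2 DMSO libraries at 0 h held 93.8 and 105 CPM and its 2 STM2457 libraries 148 and 135. At 6 days they held 80.9 and 81.3 against 102 and 107. In NGP they held 101 and 88.6 against 122 and 108 at 3 days, and 89.2 and 78.1 against 99.3 and 109 at 6 days. The differences of 0.50 ± 0.16, 0.38 ± 0.16, 0.26 ± 0.14 and 0.32 ± 0.14 did not pass the test one by one (adjusted p = 0.0761, 0.205, 0.418 and 0.179). Over the 6 conditions WTAP was higher by 0.56 ± 0.07 (adjusted p = 2.319e-13) in Kelly and 0.34 ± 0.06 (adjusted p = 1.655e-06) in NGP.

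RBM15B, the RNA-binding paralog, had the largest averaged rise in both lines, 0.61 ± 0.08 in Kelly and 0.74 ± 0.07 in NGP. At 0 h it held 70.3 and 70.8 CPM in the NGP DMSO libraries at 3 days and 97.2 and 96.7 in the STM2457 libraries, a difference of 0.45 ± 0.16 that missed the threshold (adjusted p = 0.114). The gap was wider at 6 h of actinomycin D, with 20.3 and 20.8 CPM in DMSO against 51.1 and 45.8 in STM2457. Of its exon bases 20% also lie in DCAF1 on the opposite strand, and the headers name no strand option, so reads of these genes cannot be told apart there. DCAF1 differed by -0.01 ± 0.08 in Kelly and 0.11 ± 0.07 in NGP in the same average.

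RBM15 gave 1 of the 2 calls at 0 h. In NGP at 6 days it held 80.9 and 81.8 CPM in DMSO and 117 and 120 in STM2457, a log2 difference of 0.55 ± 0.13 (adjusted p = 0.00183). The call was kept in all 4 refits that left out 1 of these libraries and on the spike-in scale (0.51). It was the only member called in that comparison, where 7.99% of all genes were called. Of the members 9 of 9 lay above 0 there, against 52.25% of all genes. In Kelly at 3 and 6 days and NGP at 3 days 9, 7 and 8 of 9 did, against 47.5%, 48.51% and 49.72%. The NGP DMSO group of RBM15 at 6 days stood below the 3-day group, and at 3 days RBM15 held 114 and 106 CPM in DMSO and 118 and 112 in STM2457. Averaged over the conditions RBM15 was higher by 0.15 ± 0.05 in Kelly, lost without replicate 2 of DMSO at 3 days and 3 h (0.13) or replicate 1 at 6 h (0.13), and by 0.33 ± 0.05 in NGP. The difference between the 2 durations' effects in NGP, 0.49 ± 0.18, did not pass the test (adjusted p = 0.188).

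ZC3H13 gave the other. In Kelly at 6 days it held 333 and 340 CPM in DMSO and 404 and 403 in STM2457, a difference of 0.28 ± 0.08 (adjusted p = 0.0178). It was the 1 member of 9 called in that comparison, against 3.97% of all genes. The call was lost without either replicate of either group (0.25 to 0.28) and on the spike-in scale, where the difference was 0.03. Its averaged rise was 0.33 ± 0.03 in Kelly and 0.13 ± 0.03 in NGP.

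**Figure D2:**
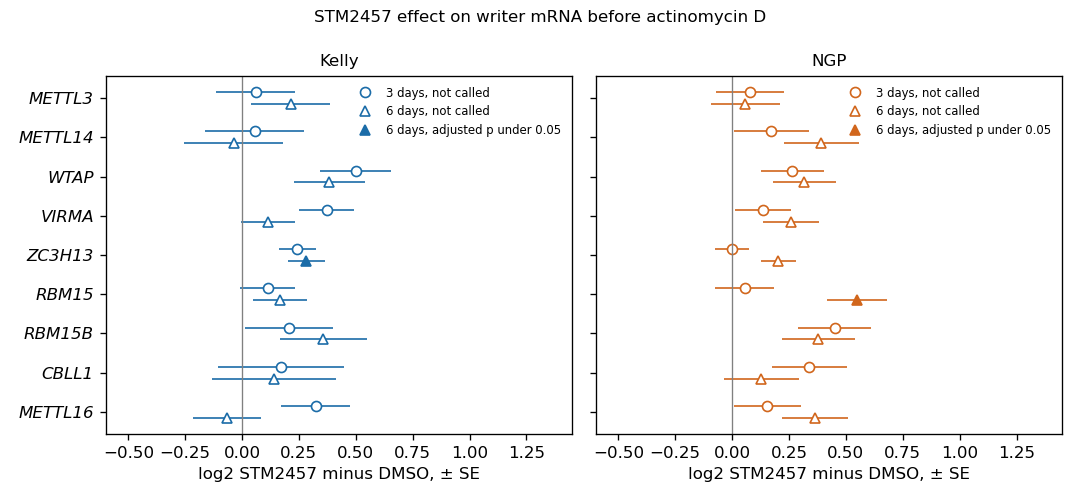
Difference between STM2457 and DMSO at 0 h for the 9 members, as log2 change ± SE from edgeR with TMM scaling, by line and duration (2 libraries against 2). Most points lie between 0 and 0.5, and the 2 called differences are ZC3H13 in Kelly at 6 days and RBM15 in NGP at 6 days.

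Of the catalytic pair, METTL3 passed in neither line under TMM scaling and METTL14 in NGP. METTL3 held 45.4 and 51.7 CPM in the Kelly DMSO libraries at 3 days and 47.6 and 54.3 in the STM2457 libraries, and 52.0 and 50.2 against 50.9 and 57.6 in NGP. Its differences at 0 h were 0.06, 0.21, 0.08 and 0.06, and the averages of 0.14 ± 0.07 (adjusted p = 0.180) in Kelly and 0.13 ± 0.06 (adjusted p = 0.0921) in NGP did not pass the test. With library size alone or spike-in scaling 9 of 9 members were called in the NGP average, METTL3 included, so its failure to pass there depends on the scaling. METTL14 had differences of 0.06 and -0.04 in Kelly and 0.17 and 0.39 in NGP, with averages of 0.22 ± 0.09, which did not pass (but did in 7 of 24 refits that left out 1 library), and 0.40 ± 0.07, which did. The NGP average of METTL3 passed in 2 of 24 such refits. Against 0 of 9 called in Kelly at 3 days (1.68% of all genes) and 0 of 9 in NGP at 3 days (3.70%), an unadjusted p under 0.05 was reached by 4 and 2 members. The share of all genes at that unadjusted level is not given. On other settings the Kelly comparison at 3 days gave 3 calls with DESeq2, 1 with limma-voom and 6 with spike-in scaling, and the NGP comparison gave 0, 0 and 1.

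Of the other subunits, VIRMA rose on average by 0.39 ± 0.05 in Kelly and 0.41 ± 0.05 in NGP, and CBLL1 by 0.30 ± 0.07 in NGP, with 0.06 ± 0.11 in Kelly that did not pass. METTL16 rose by 0.18 ± 0.06 in Kelly and 0.20 ± 0.06 in NGP. The Kelly average was not called without 1 of 5 libraries in turn, at 0.14 to 0.17: replicate 1 of DMSO at 3 days and 0 h or 3 h, replicate 2 of DMSO at 3 or 6 days and 6 h, or replicate 1 of STM2457 at 3 days and 3 h. Its values at 0 h went both ways in Kelly, with 74.5 and 84.2 CPM in DMSO against 95.4 and 104 in STM2457 at 3 days, and 78.1 and 83.8 against 76.8 and 75.3 at 6 days. The groups did not overlap in either duration, in opposite directions, and the difference between the effects, -0.39 ± 0.21, did not pass the test (adjusted p = 0.821).

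How often both STM2457 libraries stood above both DMSO libraries shows the same without a model. Over the 12 conditions of both lines this held in 11 for WTAP, 11 for VIRMA, 11 for RBM15B, 10 for RBM15, 9 for ZC3H13, 7 for METTL16, 6 for METTL14, 6 for CBLL1 and 3 for METTL3. Over all genes and conditions it held in 20.8%. Of the 17343 genes, 1.03% reached 11 or more, 2.00% reached 10, 3.34% reached 9, 7.80% reached 7, 11.9% reached 6 and 38.8% reached 3. The opposite order occurred in 2 conditions for METTL16 and in 0 for the others. WTAP and ZC3H13 were separate in all 6 conditions of Kelly, and VIRMA and RBM15B in all 6 of NGP, while METTL14 was separate in 1 of Kelly and 5 of NGP, and CBLL1 likewise. On the spike-in scale the counts were 12 for WTAP, 11 for VIRMA, RBM15B and METTL16, and 10 for RBM15. They were 9 for METTL14, ZC3H13 and CBLL1 and 8 for METTL3. The opposite order occurred there in 1 condition each for METTL14, RBM15 and METTL16. The share of all genes on that scale is not given, and their median was itself higher in the average, by 0.24 in Kelly and 0.12 in NGP.

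No member's STM2457 effect at 0 h differed between the lines by a test of that difference (0 of 9 at either duration, with 0.161% of all genes called at 3 days and 1.75% at 6 days), nor between the durations (0 of 9 in either line, 0.788% in Kelly and 2.80% in NGP). At an unadjusted p under 0.05, for which the share of all genes is not given, the line difference was reached by ZC3H13 at 3 days (-0.24). At 6 days it was reached by RBM15 (0.40) and METTL16 (0.45).

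Under actinomycin D and TMM scaling the 9 mRNAs ranged from WTAP and RBM15B, which fell steeply, to METTL3, which had no called change in DMSO. Over 6 h in DMSO, 6 of 9 members fell in Kelly at either duration, and in NGP 6 fell at 3 days and 4 at 6 days. None rose. Of all genes, 15.6%, 13.3%, 18.4% and 18.7% fell in these comparisons and 30.1%, 26.5%, 37.4% and 36.7% were called in either direction. The members' medians were -0.48, -0.67, -0.43 and -0.38 against 0.00, 0.05, -0.01 and -0.05 for all genes. On the spike-in scale 8 and 9 of 9 members were called over 6 h in DMSO in Kelly at 3 and 6 days. In NGP 9 of 9 were called at either duration. Of all genes, 5265 and 10389 of 16759 were called on that scale in Kelly, and 8048 and 9876 of 14661 in NGP.

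WTAP lost the most in Kelly. In the DMSO libraries at 3 days it went from 93.8 and 105 CPM at 0 h to 37.2 and 40.9 at 3 h and 27.3 and 24.01 at 6 h. At 6 days it went from 80.9 and 81.3 to 32.8 and 37.6 and then 20.1 and 22.2. The 6 h change was -1.95 ± 0.17 at both durations (adjusted p = 7.57e-23 and 2.15e-22). The fall was shallower in NGP, from 101 and 88.6 to 37.4 and 39.0 at 3 days (-1.32 ± 0.14) and from 89.2 and 78.1 to 31.0 and 34.5 at 6 days (-1.39 ± 0.14). The difference between the lines, 0.64 ± 0.20 at 3 days and 0.58 ± 0.20 at 6 days, did not pass the test (adjusted p = 0.0930 and 0.0911). A further 6.81% of WTAP's exon bases lie in SOD2 on the opposite strand, and SOD2 moved the other way, by 0.64, 0.78, 0.97 and 0.95.

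**Figure D3:**
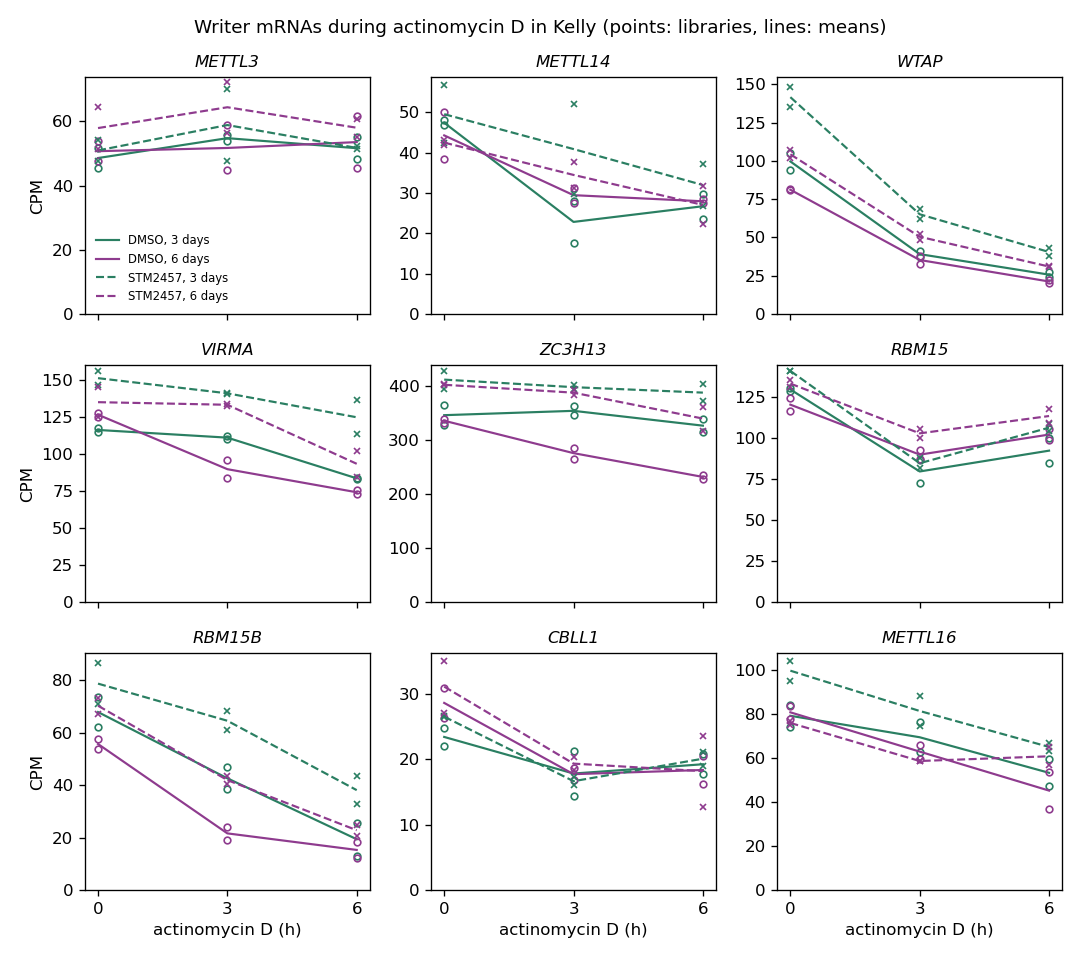
CPM of the 9 members in Kelly at 0, 3 and 6 h of actinomycin D on a linear axis from 0, with 1 mark per library, circles and solid lines for DMSO, crosses and dashed lines for STM2457, green for 3 days and purple for 6 days. The means of WTAP and RBM15B fall throughout in all 4 series, and METTL3 has no called change under TMM scaling. The STM2457 libraries of WTAP stand above the DMSO libraries of the same duration at each time.

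RBM15B fell steeply in both lines. In Kelly its DMSO libraries went from 62.1 and 73.5 to 25.6 and 13.2 CPM at 3 days (-1.80 ± 0.20) and from 53.8 and 57.5 to 12.3 and 18.3 at 6 days (-1.87 ± 0.21). In NGP they went from 70.3 and 70.8 to 20.3 and 20.8 (-1.79 ± 0.17) and from 54.9 and 74.8 to 18.8 and 26.2 (-1.57 ± 0.17). All 4 changes were kept in each refit that left out 1 library. DCAF1, with which it shares exon bases, changed by -0.59, -0.33, -0.00 and -0.04, with a call in Kelly at 3 days only. RBM15, its paralog, fell mainly in the early step under TMM scaling. Between 0 and 3 h it changed by -0.69, -0.41, -0.68 and -0.27 in the order of Kelly at 3 and 6 days and NGP at 3 and 6 days, and between 3 and 6 h by 0.21, 0.17, -0.06 and 0.02. These late changes were on the spike-in scale 0.35, -0.43, -0.49 and -0.57, so that RBM15 also fell late in all but Kelly at 3 days, and the early ones were -1.27, -1.09, -1.06 and -0.72. In Kelly at 3 days its DMSO libraries stood at 130 and 128, then 86.4 and 72.5, then 84.6 and 99.7 CPM. Its early changes passed the test in 3 of the 4 series. The call in Kelly at 6 days was lost without replicate 1 at 0 h (-0.37) or replicate 1 at 3 h (-0.37), and the 6 h call in Kelly at 3 days without replicate 1 at 6 h (-0.37).

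**Figure D4:**
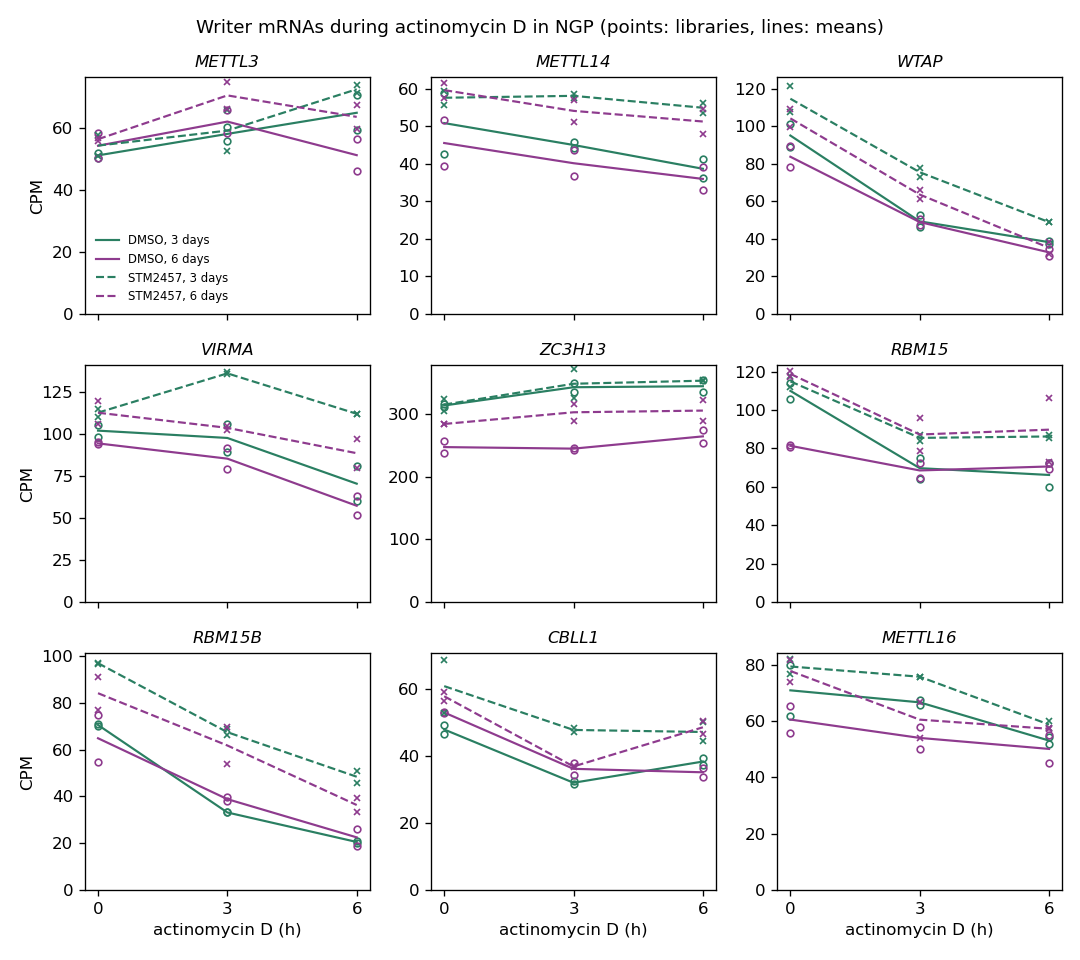
CPM of the 9 members in NGP at 0, 3 and 6 h of actinomycin D on a linear axis from 0, with marks as in the plot for Kelly: circles and solid lines for DMSO, crosses and dashed lines for STM2457, green for 3 days and purple for 6 days. The STM2457 libraries of RBM15B stand above the DMSO libraries of the same duration at all 3 times.

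The catalytic pair parted. Under TMM scaling METTL3 passed in none of the 4 DMSO series, with changes over 6 h of 0.09 ± 0.17, 0.07 ± 0.17, 0.34 ± 0.15 and -0.12 ± 0.15. Its libraries in Kelly at 3 days held 45.4 and 51.7 CPM at 0 h, 53.7 and 55.8 at 3 h and 55.0 and 48.3 at 6 h. METTL14 fell in Kelly by 0.82 ± 0.22 at 3 days and by 0.67 ± 0.22 at 6 days, with 48.1 and 46.8 CPM at 0 h, 17.6 and 28.0 at 3 h and 23.6 and 29.8 at 6 h of the former. In NGP it fell by 0.41 ± 0.17 at 3 days (adjusted p = 0.0486) and changed by -0.38 ± 0.17 at 6 days, which did not pass. Its change between 0 and 3 h in Kelly at 3 days, -1.04 (adjusted p = 8.04e-05), was kept in all 13 alternatives, 4 of them refits without 1 library (-1.41 to -0.74). The 6 h calls of METTL14 each rested on single libraries: that in Kelly at 3 days was lost without replicate 1 at 6 h (-0.66), that at 6 days without replicate 2 at 0 h (-0.46) or at 6 h (-0.65), and that in NGP at 3 days without replicate 1 at 0 h (-0.15), replicate 1 at 6 h (-0.35) or replicate 2 at 6 h (-0.50). METTL3 shares 6.62% of its exon bases with TOX4 on the opposite strand, and TOX4 changed by 0.01, 0.21, 0.54 and -0.23. On the spike-in scale METTL3 changed by -0.34, -1.202, -0.46 and -1.17, less than METTL14 in each series (-1.26, -1.95, -1.21 and -1.43). In Kelly at 6 days and in NGP at both durations 9 of 9 members were called on that scale, METTL3 included.

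VIRMA fell in all 4 DMSO series, by 0.47, 0.78, 0.54 and 0.76. Under TMM scaling its change was larger between 3 and 6 h than before in all but Kelly at 6 days. In NGP at 6 days its libraries stood at 95.1 and 94.0 CPM at 0 h, 79.4 and 91.6 at 3 h and 63.1 and 51.6 at 6 h. Its change between 3 and 6 h was -0.42, -0.29, -0.46 and -0.59. Of these the calls in Kelly at 3 days (lost without any 1 of its 4 libraries, at -0.44 to -0.40) and in NGP at 3 days (lost without replicate 1 at 3 h, -0.32, or replicate 2 at 6 h, -0.26) rested on all libraries together. The 6 h call in NGP at 3 days was lost without replicate 2 at 6 h (-0.35). With spike-in scaling and with limma-voom the late VIRMA call in Kelly at 3 days was also lost. In that series the median of all genes changed on the spike-in scale by -0.55 between 0 and 3 h and by 0.14 between 3 and 6 h.

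ZC3H13 was the member whose change over 6 h in DMSO differed between the lines, at 6 days only. In Kelly at 6 days its DMSO libraries went from 333 and 340 CPM to 266 and 286 at 3 h and 228 and 236 at 6 h (-0.54 ± 0.08, adjusted p = 3.64e-09). In NGP at 6 days they held 237 and 257, then 246 and 243, then 275 and 254 (0.06 ± 0.08). That NGP group at 0 h was itself lower than the 3-day group, by a log2 difference of -0.36, so the contrast starts from a low group. The difference between the lines was 0.63 ± 0.11 (adjusted p = 3.75e-05), kept in 8 of 8 refits that left out 1 library and on the spike-in scale (0.82), and ZC3H13 was the 1 member of 9 called in that comparison, against 4.25% of all genes. At 3 days it was -0.08 in Kelly and 0.13 in NGP, the difference between the lines was 0.22 ± 0.11 (adjusted p = 0.435), and 0 of 9 were called (1.59% of all genes). On the spike-in scale ZC3H13 fell in every DMSO series, by 0.51, 1.82, 0.67 and 0.99.

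CBLL1 and METTL16 fell moderately. CBLL1 passed the test over 6 h in NGP at 6 days (-0.63 ± 0.17, adjusted p = 0.00137), where it went from 53.1 and 52.7 to 36.3 and 33.8 CPM. Its other changes were -0.28, -0.65 and -0.33. METTL16 fell in Kelly by 0.57 and 0.84 and in NGP at 3 days by 0.43, and changed by -0.31 in NGP at 6 days. Its Kelly libraries at 6 days held 78.1 and 83.8 CPM at 0 h and 53.7 and 36.8 at 6 h. The METTL16 call in Kelly at 3 days was lost without replicate 2 at 6 h (-0.41), and that in NGP without replicate 2 at 0 h (-0.24) or replicate 1 at 6 h (-0.43).

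Split into an earlier and a later step, the DMSO course had 4, 5, 4 and 3 members that fell between 0 and 3 h, against 9.37%, 7.90%, 11.3% and 9.89% of all genes called lower and 19.9%, 18.2%, 24.1% and 21.4% called in either direction. Between 3 and 6 h, 3, 3, 2 and 3 fell, against 4.67%, 3.33%, 4.55% and 7.80% lower and 6.83%, 4.51%, 8.61% and 13.9% in either direction. WTAP and RBM15B passed in the early step of all 4 series, WTAP at -1.34, -1.19, -0.97 and -0.79 and RBM15B at -0.66, -1.36, -1.11 and -0.76. The early RBM15B call was lost in Kelly at 3 days without replicate 2 at 0 h (-0.54) or replicate 1 at 3 h (-0.52), and in NGP at 6 days without replicate 2 at 0 h (-0.51). CBLL1 fell early in NGP, by 0.60 and 0.57, and lost these calls without replicate 1 at 3 h (-0.59 and -0.50) and, at 3 days, also without replicate 1 at 0 h (-0.56). In Kelly at 6 days the early calls of VIRMA (-0.49) and ZC3H13 (-0.27) were lost without replicate 1 at 3 h (-0.39 and -0.22), that of ZC3H13 also without replicate 2 at 0 h (-0.27). Of the late calls, WTAP in Kelly at 3 days (-0.61) was lost without replicate 2 at 3 h (-0.54) or at 6 h (-0.53). In Kelly at 6 days, ZC3H13 (-0.27) and METTL16 (-0.49) each lost the late call without any 1 of 3 libraries, at -0.29 to -0.21 and -0.57 to -0.25: replicate 2 at 3 h, replicate 2 at 6 h and, for ZC3H13, replicate 1 at 6 h or, for METTL16, replicate 1 at 3 h.

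**Figure D5:**
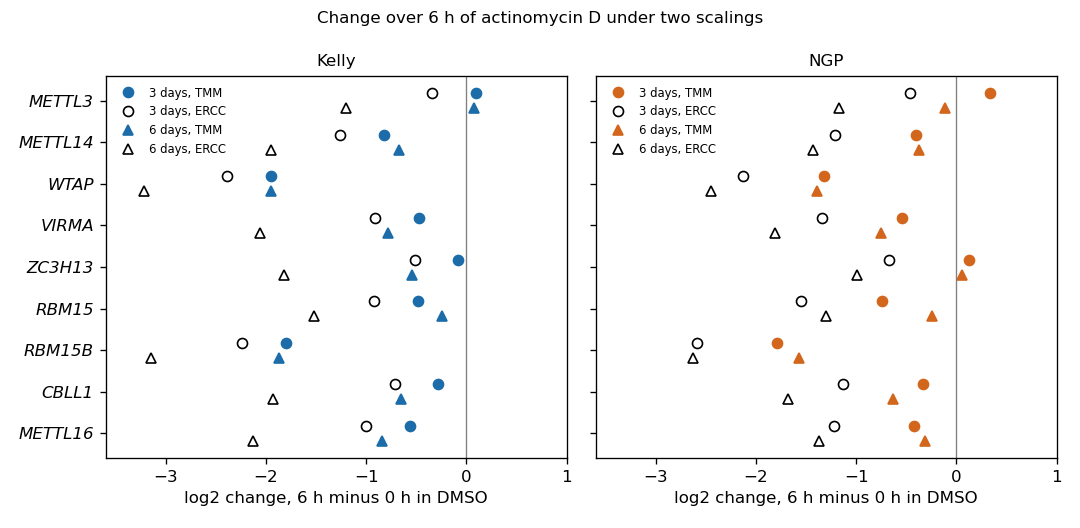
Fitted log2 change of each member over 6 h of actinomycin D in DMSO, by line (panels) and duration (circles for 3 days, triangles for 6 days), filled under TMM scaling and open under ERCC scaling, without error bars. Every open mark lies below 0 and below its filled mark, and WTAP and RBM15B are lowest under both scalings.

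In STM2457, too, WTAP and RBM15B fell in every series. Over 6 h, 5, 6, 5 and 5 of 9 members were called, against 26.9%, 26.4%, 32.5% and 32.1% of all genes. All were lower but 1, METTL3 in NGP at 3 days (0.39 ± 0.15, adjusted p = 0.0379), which lost its call without any 1 of its 4 libraries (0.30 to 0.47) and was -0.27 on the spike-in scale. WTAP changed by -1.80, -1.76, -1.26 and -1.59, close to its values in DMSO. RBM15B changed by -1.04, -1.63, -1.03 and -1.25, against -1.80, -1.87, -1.79 and -1.57 in DMSO. In NGP at 3 days its treated libraries went from 97.2 and 96.7 to 66.3 and 68.6 and then 51.1 and 45.8 CPM. Among the other calls in Kelly, METTL14 (-0.63 and -0.66) lost its call at 3 days without replicate 2 at 0 h (-0.40) or 6 h (-0.41), and at 6 days without either replicate at 0 h or replicate 1 at 6 h (-0.67 to -0.43). RBM15 at 3 days (-0.40) lost it without replicate 1 at 6 h (-0.38). At 6 days ZC3H13 (-0.25) lost it without either replicate at 0 h or replicate 2 at 6 h (-0.25 to -0.16), and CBLL1 (-0.79) without replicate 2 at 0 h (-0.58) or replicate 1 at 6 h (-0.41). In NGP, METTL16 (-0.46 and -0.47) lost it at 3 days without replicate 1 at 0 h (-0.41) or replicate 2 at 6 h (-0.43), and at 6 days without replicate 1 at 0 h (-0.40) or at 6 h (-0.46). VIRMA (-0.38) lost its call at 6 days without replicate 2 at 0 h (-0.28) or replicate 1 at 6 h (-0.24), and RBM15 (-0.44) without replicate 1 at 6 h (-0.18).

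Whether STM2457 changed the decay was tested as the difference between the 2 changes over 6 h. No member passed in any of the 4 comparisons (0 of 9 in each, against 0.221%, 0.424%, 0.703% and 2.54% of all genes). At an unadjusted p under 0.05, for which the share of all genes is not given, there were 1, 2, 2 and 1 members. DESeq2 and limma-voom also gave 0 called members in each. RBM15B came closest, with 0.76 ± 0.28 in Kelly at 3 days (adjusted p = 0.354) and 0.76 ± 0.23 in NGP at 3 days (adjusted p = 0.135), and 0.24 ± 0.28 and 0.33 ± 0.23 at 6 days. All 4 values were above 0. In Kelly at 3 days the value lay between 0.36 and 1.31 over the 8 refits that left out 1 library and was called, at 1.31, without replicate 1 of the DMSO group at 6 h. VIRMA had 0.20, 0.24, 0.50 and 0.37, also all above 0, and was called in NGP at 3 days without replicate 1 of the DMSO group at 6 h (0.73). WTAP had 0.15, 0.18, 0.06 and -0.20, and METTL3 -0.07, -0.08, 0.05 and 0.26. In Kelly at 6 days the METTL3 value turned to 0.62 on the spike-in scale (adjusted p = 0.0497). On the spike-in scale 1, 7, 1 and 5 members were called, with the median of all genes itself moved by -0.37, 0.70, 0.14 and 0.41.

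METTL16 is known for its action on MAT2A mRNA, so that mRNA was set beside it. In METTL16's known substrate hairpins the methylated adenosine lies in a nonamer such as TACAGAGAA (written as DNA). Only this exact nonamer was searched for. A search of the canonical transcripts found 5 copies in the 3′ UTR of MAT2A, on the plus strand of chromosome 2 in GRCh38. They are candidate sites of METTL16 in this mRNA, and other forms of the site would be missed. The nonamer is in capitals, and the stretches lie at chr2:85543802-85543830, chr2:85544589-85544617, chr2:85544774-85544802, chr2:85544889-85544917 and chr2:85545112-85545140 in this order:
MAT2A site 1: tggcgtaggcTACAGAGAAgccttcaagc
MAT2A site 2: tgtgatgtcaTACAGAGAAgtcacagggc
MAT2A site 3: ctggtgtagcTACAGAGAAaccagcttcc
MAT2A site 4: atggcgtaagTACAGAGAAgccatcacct
MAT2A site 5: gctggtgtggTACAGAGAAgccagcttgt
Of 19024 canonical protein-coding transcripts, 644 (3.385%) held at least 1 copy on the transcript's own strand and 2 held 5 or more. Among the writer mRNAs 1 of 9, METTL14, held the nonamer, once. A match of letters is not evidence of methylation.

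MAT2A had larger falls under actinomycin D in the STM2457 libraries than in the DMSO libraries, but the difference did not pass the test. In Kelly at 6 days its DMSO libraries went from 185 and 171 CPM at 0 h to 163 and 162 at 6 h, and its STM2457 libraries from 171 and 165 to 111 and 101. Over 6 h it changed by -0.32, -0.14, -0.14 and -0.19 in DMSO and by -0.71, -0.68, -0.29 and -0.29 in STM2457. The differences, -0.40 ± 0.16, -0.53 ± 0.16, -0.15 ± 0.10 and -0.10 ± 0.10, did not pass the test (adjusted p = 0.460, 0.116, 0.735 and 0.788), and on the spike-in scale they were -0.81, 0.16, 0.00 and 0.33. At 0 h MAT2A was lower in STM2457 in NGP at 6 days, with 451 and 401 CPM in DMSO and 349 and 352 in STM2457 (-0.28 ± 0.07, adjusted p = 0.00644). In the same libraries METTL16 held 55.6 and 65.4 against 81.8 and 73.7, a difference of 0.36 ± 0.15 that did not pass (adjusted p = 0.125). Averaged over the 6 conditions of a line MAT2A was lower by a log2 difference of -0.25 ± 0.05 in Kelly and -0.25 ± 0.03 in NGP, and of -0.05 and -0.14 on the spike-in scale, where the median of all genes was 0.24 and 0.12. MAT2A was also higher in NGP than in Kelly, by 0.94 ± 0.09 at 3 days and 1.26 ± 0.09 at 6 days, where METTL16 was level or lower.

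The writer mRNAs could themselves carry m6A, and GGACT is a common form of its motif. On the canonical transcript's own strand METTL3 held 2.02 copies per kb, WTAP 1.90, VIRMA 1.54, METTL14 1.204, ZC3H13 0.997, RBM15B 0.906, RBM15 0.889, METTL16 0.523 and CBLL1 0.502, with a median of 0.923 over all 19024 transcripts. METTL3, with the most copies per kb, did not pass in the averaged STM2457 effect of either line under TMM scaling. WTAP and VIRMA, next in copies, were called higher in both lines. So was RBM15B, near the median, with the largest averaged difference. Whether copies per kb go with the effect was not tested, and with 9 genes this is a description.

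Beside the writers, 22 other genes of the m6A pathway were followed: erasers, readers, other RNA methyltransferases and the enzymes of methyl donor supply. At 0 h, 0 of 22 were called in Kelly at 3 days and 3 were higher in Kelly at 6 days. In NGP 1 was higher at 3 days, and 3 were higher and 1 lower at 6 days. The shares of all genes called in these comparisons were 1.68%, 3.97%, 3.70% and 7.99%. Both demethylases were among the called genes of the list. ALKBH5 rose by 0.39 in Kelly at 6 days and by 0.50 in NGP at 6 days, and FTO by 0.44 in NGP at 3 days (adjusted p = 0.00311) and 0.42 at 6 days. The reader IGF2BP1, which stabilises its mRNA targets, rose at 6 days by 0.20 (Kelly) and 0.17 (NGP), and the nuclear reader HNRNPA2B1 by 0.16 in Kelly at 6 days. MAT2A was the lower one. In the decay difference 2 of 22 were called, both in NGP at 3 days, ALKBH5 at 0.65 (adjusted p = 0.0234) and IGF2BP1 at -0.31 (adjusted p = 0.0186). Of all genes, 0.703% were called in that comparison. Over 6 h in DMSO the 22 genes went both ways. In Kelly 7 were called higher and 6 lower at 3 days, and 7 and 2 at 6 days. In NGP the counts were 9 and 3, then 9 and 4. The shares of all genes called in either direction were 30.1%, 26.5%, 37.4% and 36.7%. No writer was called higher under TMM scaling. Averaged over the 6 conditions, STM2457 left 4 of the 22 higher and 4 lower in Kelly, and 3 higher and 8 lower in NGP, against 21.4% and 28.5% of all genes called. Both demethylases were among the higher ones in both lines, ALKBH5 at 0.59 ± 0.05 in Kelly and 0.41 ± 0.05 in NGP and FTO at 0.25 ± 0.05 and 0.35 ± 0.04, above the writers' medians of 0.22 and 0.33.

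Across the 12 group means of a line, the log2 levels of WTAP and RBM15B followed each other, with a Pearson r of 0.944 in Kelly and 0.931 in NGP, and METTL3 followed none of the others closely (r of -0.371 to 0.379). These points share the actinomycin D times and the scaling, and they are descriptive. Of 8465 genes compared, 180 had an r over 0.9 with WTAP in both lines, and the nearest were DUSP7 (0.974 and 0.976), KAT6A and DDX20. For METTL16 there were 6 such genes, with CHD8 (0.927 and 0.941), UMPS and NUP62 nearest, by the smaller r of the 2 lines. For METTL3 and METTL14 there were 0, and the nearest were H1-10, GMPR2 and HMGN4, and TRIM13, APC and ZNF318.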

How the data were processed

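Per the labels' protocols, bead-selected poly(A) RNA went into libraries of a SMART cDNA kit. Per the file headers, the authors counted read pairs over exons by gene name with featureCounts 1.5.3 on GENCODE release 33 protein-coding genes plus 92 ERCC sequences, with no strand or overlap option named. The deposited values are raw counts, neither normalized nor filtered. The submitters' processing notes name Subread 1.5.3, HISAT2 2.1.0, Trimmomatic 0.36, FastQC 0.11.5 and GRCh38.

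Groups came from the sample titles. Counts were filtered with filterByExpr (minimum count 10, minimum total 15), TMM-scaled and tested with edgeR 4.0.16 in R 4.3.3 (glmQLFit, glmQLFTest, threshold 0.05), in 1 fit of 24 libraries per line (16759 genes in Kelly, 14661 in NGP) or, between lines, of all 48 (17343 genes). Each SE is the log2 change over the root of its F statistic. Alternatives were DESeq2 1.42.0, limma-voom 3.58.1, other scalings including ERCC, no filter, no separate dispersion trend, a replicate block, fits of 1 duration and leaving out each library. Motifs were counted in canonical transcripts of GENCODE release 44 on GRCh38. The scripts were tested on simulated data. The 2 libraries of each group differed beyond sampling noise. Totals of 11139550 to 21942238 fragments limit the precision of low counts only, and intervals cover counting error and library spread. The text names all 9 members, MAT2A, the genes that share exon bases, up to 4 called genes of the other m6A list per comparison, and 3 genes of most similar pattern for 4 members. The members and lists were chosen with earlier results of these data known.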

Additional observations from a re-analysis of the deposited data

Results flagged for a closer look

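The change of ZC3H13 over 6 h of actinomycin D in DMSO at 6 days differed between the lines, by 0.63 on the log2 scale in a test of that difference (NGP minus Kelly, SE 0.11, edgeR adjusted p = 3.75e-05). The Kelly libraries fell from 333 and 340 to 228 and 236 CPM, and the NGP libraries went from 237 and 257 to 275 and 254. At 3 days the same difference was 0.22 and did not pass (adjusted p = 0.435). The NGP DMSO group at 6 days and 0 h was itself lower than the 3-day group, by a log2 difference of -0.36. On the spike-in scale ZC3H13 fell in NGP at 6 days as well, with a change of -0.99.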

How the results depend on the processing

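Directions of called members held under every setting except spike-in (ERCC) scaling, and most lost calls came from leaving out 1 library, which leaves its group with 1 library that is assumed to vary like the other groups. Of the 95 calls, 60 held in every alternative. ERCC scaling reversed 23 member values. In Kelly these were METTL3 after STM2457 at 3 days (-0.81), after DMSO at 6 days (-1.202, early -0.64, late -0.56) and its decay difference (0.62), ZC3H13 early at 3 days (-0.54), between durations in DMSO (0.32) and in the effect of STM2457 (-0.61), and RBM15 late at 6 days (-0.43) and between durations (-0.60). In NGP they were METTL3 at 3 days (-0.46 in DMSO, -0.27 in STM2457) and 6 days (-0.48 in STM2457), ZC3H13 at 3 days (-0.67, -0.52, early -0.27, late -0.40) and 6 days (-0.99, -0.55, late -0.50) and RBM15 late at 6 days (-0.57), and between lines at 3 days WTAP (0.34) and ZC3H13 (0.27). A sign change without a call in either fit is not counted here. The cause was not tested.

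The counts of members called moved most with ERCC scaling. At 0 h they became 6 and 0 in Kelly at 3 and 6 days and 1 in NGP at 3 days. Over 6 h in STM2457 they became 9 in Kelly at 3 days, and 8 and 9 in NGP, and in DMSO 9 in NGP at 6 days. Between 0 and 3 h they became 8 and 9 in Kelly and 8 and 8 in NGP, and between 3 and 6 h 8 in Kelly at 6 days and 7 and 9 in NGP. The decay difference gave 1, 7, 1 and 5, the durations in Kelly 5 (effect of STM2457) and 2 (DMSO), the lines at 3 days 5 (level), 1 (effect) and 1 (decay), and the decay between lines at 6 days 3. DESeq2 gave 3, 2 and 2 at 0 h in Kelly at 3 and 6 days and NGP at 6 days, and 1 and 2 for the decay between lines. Limma-voom gave 1, 2 and 2 at 0 h in these groups, and 1 between 3 and 6 h in Kelly at either duration and in NGP at 3 days. Library size alone gave 1 at 0 h in Kelly at 3 days, 8 early in Kelly at 6 days and 7 over 6 h in NGP at 6 days. No separate dispersion trend gave 1, 1 and 2 at 0 h in Kelly at 3 days and NGP at 3 and 6 days. RLE size factors gave 1 late in Kelly at 6 days. Settings not named here that use all libraries stayed within 1.5 times. Over all genes, ERCC scaling moved the calls most, at 0 h from 282 to 3727 in Kelly at 3 days and from 665 to 1170 at 6 days, in the decay difference from 37 to 2418 and 71 to 5033 in Kelly and from 103 to 158 and 372 to 2592 in NGP, over 6 h in DMSO from 4448 to 10389 (Kelly) and 5380 to 9876 (NGP) at 6 days, and in the average from 3589 to 5903 in Kelly. It also moved them over 6 h in STM2457 in Kelly at 3 days (4501 to 8387), early (3342 to 6063 and 3055 to 6909 in Kelly, 3140 to 4892 in NGP at 6 days) and late (1145 to 1732 and 755 to 6965 in Kelly, 1262 to 4874 and 2038 to 7192 in NGP), between durations in Kelly (132 to 4009 in the effect, 1428 to 2820 in DMSO) and between lines (28 to 644 and 303 to 488 in the effect, 276 to 1276 and 737 to 1402 in decay). DESeq2 gave 557 at 0 h in Kelly and 900 (from 542) in NGP at 3 days, and 96, 179, 167 and 593 in the decay difference, where limma-voom gave 5, 34 and 54 in the first 3, and 9 (no separate trend) and 24 (same duration only) in the first. Between durations DESeq2 gave 309 (Kelly) and 660 (NGP, from 410), and between lines 64 and 459 in the effect. Limma-voom gave 640 late in Kelly at 3 days and, between lines at 3 days, 15 in the effect and 110 in decay, and no filter gave 98 in that effect.

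Leaving out 1 library gave ranges of 1 to 2 late in Kelly at 3 and at 6 days and in NGP at 3 days, 0 to 1 for the decay difference at 3 days in either line, 0 to 0 at 0 h in Kelly at 6 days, 3 to 5 in STM2457 in Kelly at 6 days and NGP at 3 days, 2 to 5 in NGP at 6 days and early in Kelly at 6 days, 1 to 2 at 0 h in NGP at 6 days, between DMSO durations in NGP and for the decay between lines at 6 days.

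Replicate numbers are shared across groups but did not pair the libraries: the correlation of same-numbered deviations lay between -0.04 and 0.05 and was over 0.1 in 0 of 66 pairs of groups in either line. With a replicate block the members called over 6 h in DMSO in NGP at 3 days went from 6 to 5 and early in Kelly at 6 days from 5 to 6, and no other count of members changed. The 2 libraries per group limit all results, and the overlap with genes on opposite strands limits those of METTL3, WTAP and RBM15B.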
